A study of Homo sapiens with 16 samples.

Results

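Genes that TGF-beta and BMP signals switch on, and that in part hold those signals in check, were followed across 8 groups of U2OS cells, a human osteosarcoma line. These 9 genes are ID1, ID2, ID3, SMAD6, SMAD7, BAMBI, SKIL, SNAI1 and SNAI2. They were chosen by symbol, each symbol mapped to 1 Ensembl identifier, and are 9 of the 60666 genes in each deposited table. The cells carried the empty plko.puro vector, a stable shRNA to PIP4K2A (shPIP4K2A), a stable shRNA to PIP4K2B (shPIP4K2B), or both hairpins (shPIP4K2A/2B, here the double knockdown). For each of the 4 genotypes there were 2 untreated libraries and 2 from cells harvested 6 h after 30 J/m2 of UV-C. All cells grew with serum and puromycin, and the labels name neither an added TGF-beta or BMP ligand nor a non-targeting hairpin. PIP4K2A and PIP4K2B encode type II phosphatidylinositol phosphate kinases. The labels do not say whether a knockdown line is 1 clone or whether the paired libraries of a group had separate cultures behind them. The spread that p-values measure may therefore be technical.

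TGF-beta and BMP ligands bind paired serine/threonine kinase receptors, which phosphorylate receptor SMADs. SMAD2 and SMAD3 carry the TGF-beta and activin signal, SMAD1 and SMAD5 carry the BMP signal, and each pairs with SMAD4 and enters the nucleus. Several of the genes switched on first then restrain the pathway, so their transcripts are commonly read as a record of recent signalling. ID1, ID2 and ID3 are classic BMP targets, and their products bind E proteins and keep them off DNA. SMAD6 and SMAD7 are the inhibitory SMADs, BAMBI is a decoy receptor without a kinase domain, and SKIL (SnoN) is a nuclear co-repressor of SMAD complexes. SNAI1 and SNAI2 (Slug) are zinc-finger repressors that TGF-beta induces during the epithelial-mesenchymal transition. U2OS cells derive from bone, a tissue in which BMP signalling guides osteoblast formation.

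The library labelled untreated empty vector, replicate 1, was set aside. It held 1.28 M counts against 28.0 to 39.9 M in the other 15, its mitochondrial share was 14.6% against 2.20 to 3.43%, and its PIP4K2A level was 15.6 CPM (counts scaled to a common library total) against 62.9 in replicate 2. Its log2 CPM values reached a correlation of at most 0.528 with any other library, where each of the 15 reached at least 0.980 with another. Untreated empty vector therefore had 1 library, assumed to vary like the other groups. The 2 libraries of the PIP4K2A knockdown after UV differed from each other more than other replicates did: leaving out either lowered the biological coefficient of variation over all genes from 11.35% to 7.88% or 7.86%. For the 9 genes, comparisons that use these 2 libraries are given with the calls that changed without either. In the other libraries the hairpins matched their labels. PIP4K2A fell by 1.94 and by 1.48 on the log2 scale in the untreated PIP4K2A and double knockdowns, and PIP4K2B fell by 2.06 and by 2.58 in the untreated PIP4K2B and double knockdowns. Of 8 mesenchymal and osteoblast markers 7 reached 1 CPM in each of the 15 libraries, with a summed level of 4641 to 7591 CPM, against 268.7 to 933.5 for 8 epithelial, 4.99 to 10.7 for 8 blood and 2.56 to 5.51 for 6 endothelial markers.

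All 9 genes passed the filter on low counts. Per length, on the length-corrected TPM scale over the 15 libraries, the order of mean level was ID3 (32.3 TPM), ID1 (28.8), SKIL (24.3), SNAI2 (11.9), SNAI1 (9.11), ID2 (8.39), SMAD7 (4.48), SMAD6 (3.94) and BAMBI (1.25). The library ranges of every pair of neighbours in that order overlapped, for instance 12.7 to 61.1 TPM for ID3 and 9.15 to 53.9 TPM for ID1. The order differed between treatments: after UV, SKIL lay above ID3 in empty vector (21.3 against 13.1 TPM), the PIP4K2A knockdown (20.4 against 13.7) and the double knockdown (14.2 against 13.6), and SMAD7 (1.35 TPM) lay below BAMBI (1.44) in the PIP4K2A knockdown. By group means after UV, SMAD6 lay above SMAD7 and SNAI1 above SNAI2 in all 4 genotypes. In empty vector these means were 2.525 against 1.535 TPM and 12.25 against 10.08 TPM. BAMBI had at least 48 counts in each library. The plot of levels by library shows all 9 genes.

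**Figure D1:**
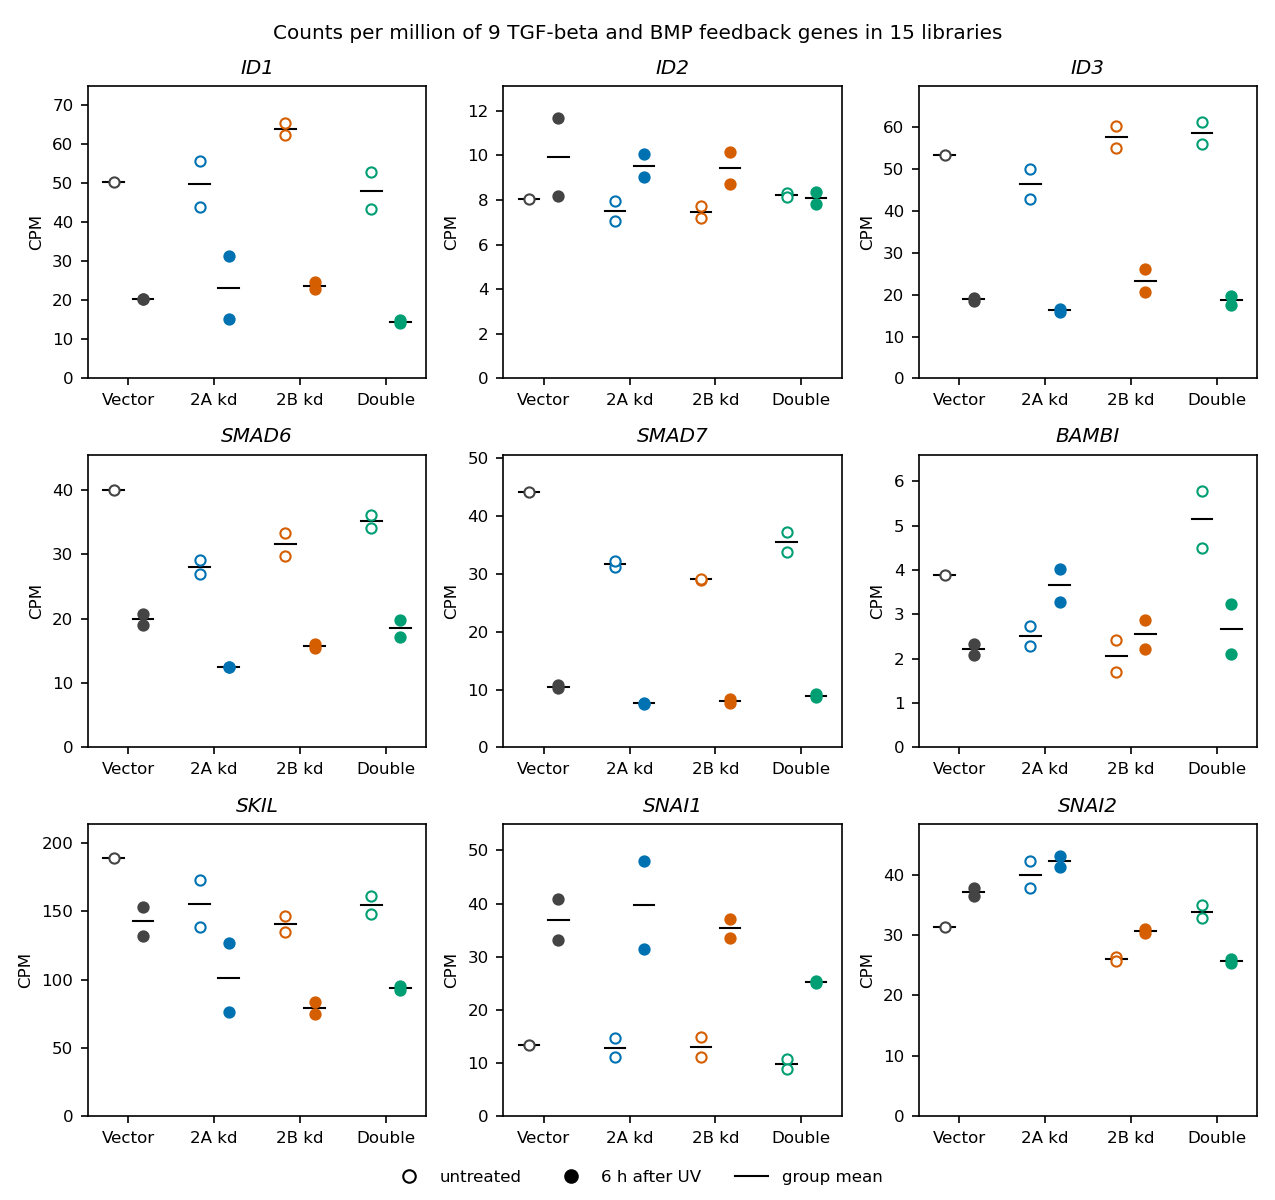
CPM of the 9 genes (y axis, linear from 0) in each of the 15 libraries by genotype (x axis); each point is 1 library, the short line is the group mean, and untreated and UV groups stand side by side. ID1, ID3, SMAD6 and SMAD7 lie lower after UV in every genotype and SNAI1 lies higher, with no overlap between the 7 untreated and 8 UV libraries. The share of all genes without such overlap was not counted.

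The main separation was by UV. Changes were tested with edgeR's quasi-likelihood model over 22597 genes, and a gene is called when its p, adjusted by Benjamini-Hochberg over all of them, is under 0.05. In empty vector 6 of the 9 genes were called, 2 higher and 4 lower, where 18.5% of all genes tested were called, 8.67% higher and 9.82% lower. The PIP4K2A knockdown had 8 calls, 4 higher and 4 lower (all genes 30.6%, 16.6% and 14%); without its UV replicate 1 it had 5 and without UV replicate 2 it had 9. The PIP4K2B knockdown had 8 calls, 3 higher and 5 lower (32.9%, 17.5% and 15.4%), and the double knockdown had 5, 1 higher and 4 lower (35.2%, 19.1% and 16.1%). ID1, ID3, SMAD6 and SMAD7 fell and SNAI1 rose in all 4 genotypes. ID2, SNAI2, SKIL and BAMBI were each called in some genotypes and not in others. Shares of all genes were not taken for the fits without 1 library. With the set-aside library included, the spread across replicates rose and empty vector kept 3 calls: ID3 at -1.05, SNAI1 at 2.33 and SNAI2 at 0.67. ID1 then stood at -0.33, SMAD6 at -0.29 and SMAD7 at -1.17, none called, and in the knockdowns ID3 was called lower in the PIP4K2A and double knockdown and no other member was called. Of all genes 12% were called in that fit in empty vector, and 0.534%, 0.783% and 1.21% in the PIP4K2A, PIP4K2B and double knockdown. In bulk RNA, fewer cells of a type and less RNA per cell cannot be told apart.

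The scale matters to these counts. Fitted changes use TMM factors, which lie 0.256, 0.254, 0.306 and 0.328 log2 units above the ratio of the printed CPM values in empty vector, the PIP4K2A, the PIP4K2B and the double knockdown. When libraries were scaled to 81 cytosolic ribosomal protein genes instead, the median gene itself lay at -0.70, -0.79, -0.90 and -0.85 after UV. Calls over all genes were then 0.664% higher and 48.3% lower in empty vector, for PIP4K2A 0.867% and 63.9%, for PIP4K2B 0.566% and 67.1%, and for the double knockdown 0.602% and 65.1%. On that scale ID1, ID3, SMAD6 and SMAD7 still fell and SNAI1 still rose in all 4 genotypes, whereas no rise of ID2, SNAI2 or BAMBI kept its sign.

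ID1 (ENSG00000125968, chromosome 20, 31605283 to 31606515, plus strand of GRCh38), an inhibitor of E proteins and a sensitive BMP target, measured 50.5 CPM in untreated empty vector and 20.5 and 20.2 CPM after UV. The PIP4K2A knockdown had 43.9 and 55.8 CPM untreated and 31.3 and 15.3 after UV. The PIP4K2B knockdown had 65.6 and 62.3 CPM untreated and 22.9 and 24.7 after UV. The double knockdown had 43.5 and 52.9 CPM untreated and 15.03 and 14.1 after UV. All 8 UV libraries lay below all 7 untreated ones, and the PIP4K2A knockdown after UV had the widest gap between its libraries. The share of all genes whose untreated and UV libraries do not overlap was not counted, here or for the genes below. The log2 change was -1.05 (SE 0.286, adjusted p = 0.0229) in empty vector, -0.85 (SE 0.241, adjusted p = 0.0185) in the PIP4K2A knockdown, -1.12 (SE 0.241, adjusted p = 0.0035) in the PIP4K2B knockdown and -1.40 (SE 0.248, adjusted p = 9.62e-04) in the double knockdown. The PIP4K2A value was -1.49 without UV replicate 1 and -0.41 without UV replicate 2, and its call was lost without untreated replicate 2. The call in empty vector was lost without either of its UV libraries.

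ID3 (ENSG00000117318, chromosome 1, 23557918 to 23559794, minus strand), a close relative of ID1, measured 53.2 CPM in untreated empty vector and 19.3 and 18.4 CPM after UV. The other untreated libraries ran from 42.9 CPM in the PIP4K2A knockdown to 61.2 in the double knockdown, and the other UV libraries from 15.9 CPM in the PIP4K2A knockdown to 26.03 in the PIP4K2B knockdown, so the ranges did not overlap. The log2 changes in empty vector, the PIP4K2A, the PIP4K2B and the double knockdown were -1.24, -1.26, -0.99 and -1.33, with adjusted p from 1.42e-05 to 1.54e-04. The PIP4K2A value was -1.32 and -1.23 without UV replicate 1 and 2.

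SMAD6 (ENSG00000137834, chromosome 15, 66702228 to 66782848, plus strand), the inhibitory SMAD that mainly restrains BMP receptors, measured 39.9 CPM in untreated empty vector and 20.8 and 19.0 CPM after UV. It measured 27.0 and 29.1 CPM in the untreated PIP4K2A knockdown and 12.5 and 12.4 after UV, which were the lowest UV values. In the PIP4K2B knockdown it went from 29.8 and 33.4 CPM to 16.1 and 15.4, and in the double knockdown from 34.2 and 36.2 to 19.9 and 17.1. The highest UV library, at 20.8 CPM, lay below the lowest untreated one, at 27.0. The log2 changes were -0.75, -0.92, -0.70 and -0.60 in the same order of genotypes, with adjusted p from 7.99e-05 to 0.00146. Without UV replicate 1 or 2 the PIP4K2A value was -0.96 or -0.91.

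SMAD7 (ENSG00000101665, chromosome 18, 48919853 to 48952052, minus strand), which blocks TGF-beta and BMP receptors alike and recruits ubiquitin ligases to them, showed the deepest fall of the 9 genes in every genotype. It measured 44.2 CPM in untreated empty vector and 10.8 and 10.3 CPM after UV. Values went from 31.3 and 32.3 CPM to 7.54 and 7.66 in the PIP4K2A knockdown, from 29.04 and 29.2 to 8.43 and 7.73 in the PIP4K2B knockdown, and in the double knockdown from 33.8 and 37.3 to 8.64 and 9.25. The replicates of each group lay close together and far from the other treatment. The log2 change was -1.81 (SE 0.113, adjusted p = 1.26e-06) in empty vector, -1.81 (SE 0.101, adjusted p = 4.19e-07) in the PIP4K2A knockdown, -1.54 (SE 0.1001, adjusted p = 1.08e-06) in the PIP4K2B knockdown and -1.66 (SE 0.0998, adjusted p = 3.46e-07) in the double knockdown. For PIP4K2A it was -1.83 and -1.82 without UV replicate 1 and 2.

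The promoters of these 4 genes are shown because the genes fell together in every genotype. Each line is the 250 bases before a RefSeq transcription start on GRCh38.p14, 5′ to 3′ on the gene's strand, with matches to the searched motifs in capitals. The windows are chr20:31605039-31605288 (plus strand) for ID1, chr1:23559502-23559751 (minus) for ID3, chr15:66701986-66702235 (plus) for SMAD6 and chr18:48949334-48949583 (minus) for the second of 3 listed starts of SMAD7.
ID1: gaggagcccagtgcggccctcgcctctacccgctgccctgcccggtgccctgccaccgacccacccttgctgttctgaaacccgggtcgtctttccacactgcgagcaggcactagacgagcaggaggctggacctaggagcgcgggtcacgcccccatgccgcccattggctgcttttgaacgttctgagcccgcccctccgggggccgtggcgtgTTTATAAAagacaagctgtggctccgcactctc
ID3: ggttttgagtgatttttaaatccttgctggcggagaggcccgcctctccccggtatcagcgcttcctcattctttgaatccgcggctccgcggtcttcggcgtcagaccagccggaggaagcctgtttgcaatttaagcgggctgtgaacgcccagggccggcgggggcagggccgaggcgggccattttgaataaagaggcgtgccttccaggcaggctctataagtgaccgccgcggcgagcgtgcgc
SMAD6: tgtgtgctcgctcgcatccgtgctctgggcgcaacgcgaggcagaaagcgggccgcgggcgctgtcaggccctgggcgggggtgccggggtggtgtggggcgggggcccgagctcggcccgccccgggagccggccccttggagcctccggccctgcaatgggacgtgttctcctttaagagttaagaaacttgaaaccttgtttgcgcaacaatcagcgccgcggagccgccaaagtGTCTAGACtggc
SMAD7: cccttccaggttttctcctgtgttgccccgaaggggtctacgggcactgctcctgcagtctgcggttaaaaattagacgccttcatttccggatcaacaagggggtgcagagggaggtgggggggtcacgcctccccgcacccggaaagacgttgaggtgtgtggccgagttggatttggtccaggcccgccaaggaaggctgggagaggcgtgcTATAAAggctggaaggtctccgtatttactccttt
Searches on both strands covered 5 motifs: the palindromic SMAD site GTCTAGAC, the GC-rich SMAD site GGCGCC, the cyclic AMP response element TGACGTCA, the E-box CACCTG that SNAI proteins can bind, and the TATA box TATAAA. Windows of the same length before 35116 starts held them in 0.182%, 16.4%, 1.65%, 17.5% and 10.7%. SMAD6 held GTCTAGAC from 12 to 5 bases upstream. ID1 held TATAAA from 31 to 26 bases upstream, overlapping its reverse-strand match from 33 to 28, and the second start of SMAD7 held TATAAA from 35 to 30. That start is printed because it is the one of the 3 with a TATA match; the third start of SMAD7 held CACCTG from 49 to 44 bases upstream, and the first held none of the 5 motifs. ID3 held none of the 5. RefSeq promoters were found for 7 of the 9 genes. Among the others, SKIL held TGACGTCA from 54 to 47 and GGCGCC from 190 to 185 bases upstream, BAMBI held GGCGCC 3 times, and ID2 held none. A match is a description of the letters, not a binding site.

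SNAI1 (ENSG00000124216, chromosome 20, 49982999 to 49988886, plus strand) was the 1 of the 9 genes called higher in all 4 genotypes. It measured 13.4 CPM in untreated empty vector and 33.1 and 40.8 CPM after UV. In the PIP4K2A knockdown it went from 11.1 and 14.7 CPM to 48.0 and 31.5, in the PIP4K2B knockdown from 11.2 and 14.9 to 37.2 and 33.6, and in the double knockdown from 10.7 and 8.99 to 25.1 and 25.5. All UV libraries lay above all untreated ones, and the double knockdown was lowest in both treatments. The log2 change was 1.73 (SE 0.276, adjusted p = 0.00113) in empty vector, 1.88 (SE 0.214, adjusted p = 6.52e-05) in the PIP4K2A knockdown, 1.75 (SE 0.214, adjusted p = 9.51e-05) in the PIP4K2B knockdown and 1.69 (SE 0.218, adjusted p = 1.10e-04) in the double knockdown. The rises under ribosomal protein gene scaling were 1.00, 1.06, 0.84 and 0.81. The PIP4K2A value was 1.51 and 2.16 without UV replicate 1 and 2.

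SNAI2 (ENSG00000019549), on the minus strand of chromosome 8 (48917604 to 48921740), measured 31.4 CPM in untreated empty vector and 36.4 and 37.7 CPM after UV. It measured 42.2 and 37.8 CPM in the untreated PIP4K2A knockdown and 43.1 and 41.3 after UV, and 26.4 and 25.7 CPM in the untreated PIP4K2B knockdown and 31.0 and 30.3 after UV. In the double knockdown it measured 34.9 and 32.8 CPM untreated and 25.3 and 25.98 after UV, the 1 genotype whose UV libraries lay below its untreated ones. The fitted log2 change was 0.50 (SE 0.105, adjusted p = 0.00637) in empty vector, 0.33 (SE 0.0834, adjusted p = 0.00997) in the PIP4K2A knockdown, 0.54 (SE 0.0849, adjusted p = 4.74e-04) in the PIP4K2B knockdown and -0.07 (adjusted p = 0.539) in the double knockdown. Scaled to ribosomal protein genes, these 3 rises became -0.23 (not called), -0.48 and -0.37 (both called lower), and the double knockdown stood at -0.95, called lower (adjusted p = 2.85e-05). Length-corrected group means of SNAI2 went from 12.8 to 10.1 TPM after UV in empty vector and from 16.95 to 12.5 in the PIP4K2A knockdown. They went from 9.43 to 10.7 TPM in the PIP4K2B knockdown and from 15.2 to 7.745 in the double knockdown. The PIP4K2A call was lost without UV replicate 1, where SNAI2 stood at 0.26, or without untreated replicate 2.

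ID2 (ENSG00000115738, chromosome 2, 8678845 to 8684453, plus strand), the third ID gene, did not fall in any genotype with TMM scaling. It measured 8.04 CPM in untreated empty vector and 8.18 and 11.7 CPM after UV. Its untreated libraries ran from 7.07 to 8.30 CPM and its UV libraries from 7.82 to 11.7, so the ranges overlapped. It rose by 0.59 (SE 0.164, adjusted p = 0.0159) with PIP4K2A and by 0.65 (SE 0.164, adjusted p = 0.0089) with PIP4K2B knocked down. It was not called in empty vector, at 0.56 (adjusted p = 0.0769), or in the double knockdown, at 0.31 (adjusted p = 0.171). With ribosomal protein gene scaling ID2 stood at -0.22 and -0.26 in the single knockdowns, not called, and at -0.57, called lower, in the double knockdown. Each call of the single knockdowns rested on single libraries, UV replicate 1 or untreated replicate 2 for PIP4K2A and untreated replicate 1 or UV replicate 1 for PIP4K2B, and was lost without either. Without PIP4K2A UV replicate 1 ID2 stood at 0.48 (adjusted p = 0.0771).

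SKIL (ENSG00000136603, chromosome 3, 170357678 to 170396835, plus strand) measured 189 CPM in untreated empty vector and 153 and 132 CPM after UV. In the PIP4K2A knockdown it went from 172 and 138 CPM to 75.9 and 126, in the PIP4K2B knockdown from 147 and 135 to 74.7 and 83.3, and in the double knockdown from 161 and 148 to 95.2 and 92.4. Every UV library of a genotype lay below its untreated libraries, but the fitted fall was called in the PIP4K2B knockdown alone, at -0.53 (SE 0.178, adjusted p = 0.0378), and that call was lost when any of 8 libraries was left out. The other values were -0.15 in empty vector, -0.36 in the PIP4K2A knockdown and -0.39 in the double knockdown. The 2 PIP4K2A libraries after UV disagreed in counts: SKIL stood at -0.08 without replicate 1 and at -0.77 (called) without replicate 2. The deposited length of SKIL, weighted by its isoforms, was 2354 bases in replicate 1 and 3202 to 3888 bases in the other 14 libraries. Length-corrected levels in the 2 PIP4K2A libraries after UV were 21.5 and 19.2 TPM, against 20.8 and 21.8 TPM in empty vector after UV. The fits used counts without a length term, and the part of length in these SKIL values was not tested. With ribosomal protein gene scaling SKIL fell in all 4 genotypes (-0.87 to -1.43).

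BAMBI (ENSG00000095739, chromosome 10, 28677342 to 28682939, plus strand) measured 3.88 CPM in untreated empty vector and 2.33 and 2.08 CPM after UV. It measured 2.73 and 2.29 CPM in the untreated PIP4K2A knockdown and 4.02 and 3.28 after UV, 2.43 and 1.69 in the untreated PIP4K2B knockdown and 2.23 and 2.88 after UV, and 4.50 and 5.79 in the untreated double knockdown and 2.11 and 3.24 after UV. The libraries thus lay higher after UV in the PIP4K2A knockdown and lower in empty vector and the double knockdown. It rose by 0.79 (SE 0.248, adjusted p = 0.0289) in the PIP4K2A knockdown, a call that was lost without UV replicate 1 (0.60) or either untreated library and that stood at -0.03 with ribosomal protein gene scaling. The values of -0.55 in empty vector, 0.60 in the PIP4K2B knockdown and -0.62 in the double knockdown were not called.

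**Figure D2:**
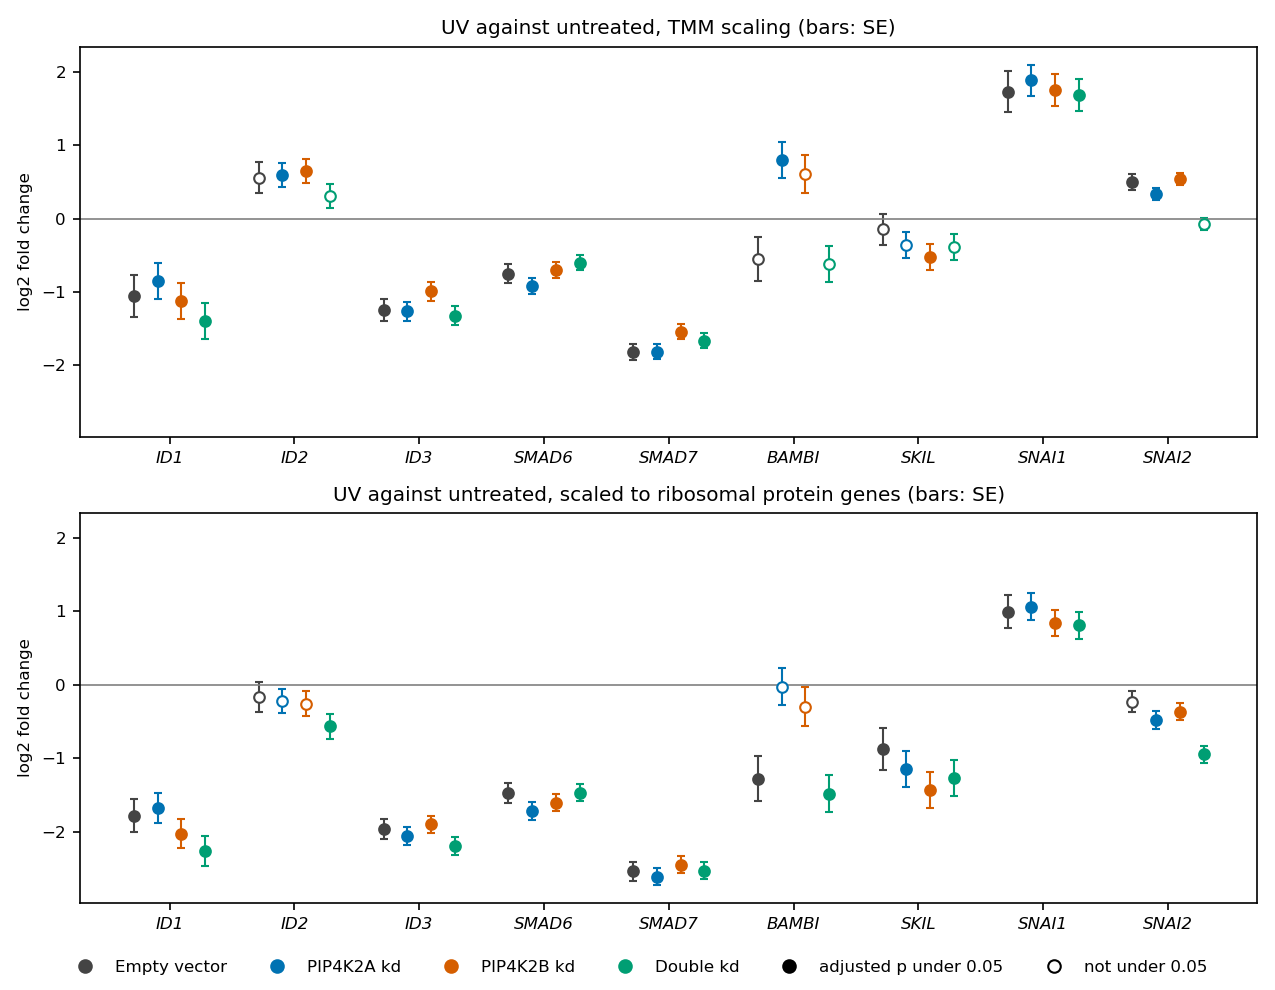
Fitted log2 change after UV (y axis) of each of the 9 genes (x axis) in the 4 genotypes, with bars of 1 SE; filled points have an adjusted p under 0.05, and the panels show TMM and ribosomal protein gene scaling. SMAD7 is lowest at -1.54 to -1.81 and SNAI1 highest at 1.69 to 1.88 with TMM, and all genes but SNAI1 lie below 0 in every genotype with ribosomal protein gene scaling.

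The next comparisons set each knockdown against empty vector without UV, and rest on the 1 untreated empty-vector library. SMAD7 was lower in both single knockdowns and SMAD6 in the PIP4K2A knockdown, and no other member was called. In the PIP4K2A knockdown 2 of 9 genes were called, both lower, where 7.84% of all genes were called. SMAD6 measured 27.0 and 29.1 CPM against 39.9 in empty vector, a log2 difference of -0.54 (SE 0.125, adjusted p = 0.0194), and SMAD7 measured 31.3 and 32.3 CPM against 44.2, a difference of -0.51 (SE 0.113, adjusted p = 0.0156). In the PIP4K2B knockdown 1 gene was called, where 10.2% of all genes were: SMAD7 at 29.04 and 29.2 CPM, a difference of -0.57 (SE 0.113, adjusted p = 0.00639). SMAD6 stood at -0.31 there (adjusted p = 0.149). In the double knockdown edgeR called 0 of 9, against 6.2% of all genes, with 1 at an unadjusted p under 0.05 (SMAD7, -0.34, adjusted p = 0.106) and 0 by DESeq2. The SMAD6 and SMAD7 calls of the PIP4K2A knockdown were lost without its replicate 1 and in a fit of only the 2 groups. With the set-aside library included no member was called, and SMAD7 stood at 0.16 and 0.10 in the PIP4K2A and PIP4K2B knockdowns. Of all genes 0.177%, 0.711% and 0.204% were called in that fit in the PIP4K2A, PIP4K2B and double knockdown. With ribosomal protein gene scaling, which put the median gene at 0.31, 0.15 and 0.26 in the 3 knockdowns, SMAD6 stood at -0.24 and SMAD7 at -0.21 for PIP4K2A and SMAD7 at -0.42 for PIP4K2B, none called, while SNAI2 in the PIP4K2A knockdown was called higher, at 0.62.

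The remaining members did not pass the test against untreated empty vector. ID1, ID2 and ID3 stayed between -0.23 and 0.37, SKIL between -0.31 and -0.39, and SNAI1 between -0.46 and -0.01 on the log2 scale. BAMBI stood at -0.66 and -0.88 in the PIP4K2A and PIP4K2B knockdowns and at 0.38 in the double knockdown, with standard errors near 0.30. SNAI2 stood at 0.31 with PIP4K2A and at -0.24 with PIP4K2B knocked down.

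After UV, knockdown and empty vector were compared with 2 libraries on each side. In the PIP4K2A knockdown 2 of 9 genes were called lower, where 20.3% of all genes were called: SMAD6 at -0.71 (SE 0.108, adjusted p = 6.96e-04) and SMAD7 at -0.51 (SE 0.102, adjusted p = 0.00412), the same 2 as without UV. The UV libraries measured 12.5 and 12.4 against 20.8 and 19.0 CPM in empty vector for SMAD6, and 7.54 and 7.66 against 10.8 and 10.3 CPM for SMAD7. In the PIP4K2B knockdown 1 gene was called (19% of all genes): SKIL fell by 0.77 (SE 0.179, adjusted p = 0.00928), at 74.7 and 83.3 CPM against 153 and 132. In the double knockdown 1 gene was called (15.4% of all genes): SNAI2 fell by 0.48 (SE 0.0844, adjusted p = 0.0021), at 25.3 and 25.98 CPM against 36.4 and 37.7. The SMAD6 and SMAD7 calls held without either PIP4K2A library, at -0.74 and -0.70 and at -0.52 and -0.51, and were lost in a fit of only these 2 groups. The SKIL call was lost without empty-vector UV replicate 1 or PIP4K2B UV replicate 1, and with ribosomal protein gene scaling SMAD6 kept its call at -0.49 and SMAD7 (-0.28) and SNAI2 (-0.36) did not, while BAMBI (0.90) and SNAI2 (0.37) were called higher in the PIP4K2A knockdown. ID1 in the PIP4K2A knockdown had no settled direction: it stood at 0.15, at -0.47 (called) without its UV replicate 1, and at 0.59 (called) without UV replicate 2. SKIL (-0.94) and BAMBI (0.83) were called without UV replicate 2 and not without UV replicate 1 (-0.23 and 0.51). In TPM, SKIL measured 21.5 and 19.2 in these 2 libraries against 20.8 and 21.8 in empty vector after UV.

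**Figure D3:**
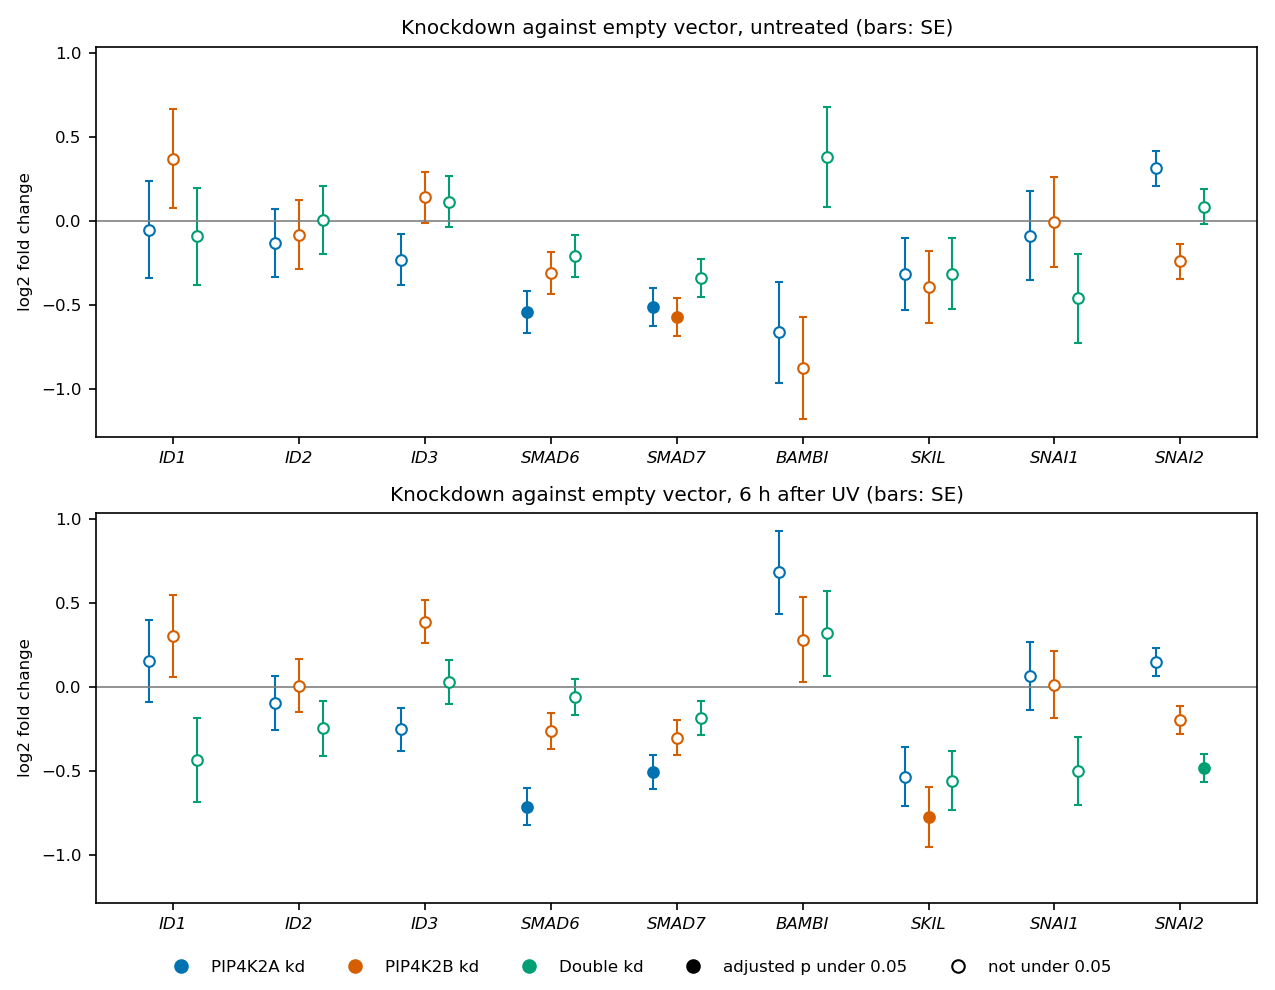
Fitted log2 difference from empty vector (y axis) of each of the 9 genes (x axis) in the 3 knockdowns, with bars of 1 SE, untreated above and 6 h after UV below; filled points have an adjusted p under 0.05. SMAD6 and SMAD7 in the PIP4K2A knockdown are filled in both panels, at -0.54 and -0.51 untreated and -0.71 and -0.51 after UV.

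Between knockdowns, BAMBI and SNAI2 differed without UV. Against the PIP4K2A knockdown 1 of 9 genes was called in the double knockdown (7.1% of all genes): BAMBI was higher by 1.05 (SE 0.246, adjusted p = 0.022), at 4.50 and 5.79 CPM against 2.73 and 2.29. Against the PIP4K2B knockdown, with BAMBI at 2.43 and 1.69 CPM, 2 were called (15.4%): BAMBI was higher by 1.26 (SE 0.250, adjusted p = 0.00421) and SNAI2 was higher by 0.33 (SE 0.0848, adjusted p = 0.0201). Between the single knockdowns 1 was called (3.16%): SNAI2 was lower in the PIP4K2B knockdown, at -0.55 (SE 0.0846, adjusted p = 0.00325), at 26.4 and 25.7 CPM against 42.2 and 37.8. The BAMBI calls were lost without untreated double knockdown replicate 2, without either untreated PIP4K2A library for the first, and without untreated PIP4K2B replicate 2 for the second. The SNAI2 call against PIP4K2B was lost without any of the 4 libraries compared, and the one between single knockdowns without untreated PIP4K2B replicate 2.

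After UV the PIP4K2A knockdown stood lowest for SMAD6 and highest for SNAI2. Against it, 3 of 9 genes were called in the double knockdown (19.5% of all genes): SMAD6 was higher by 0.65 (SE 0.109, adjusted p = 0.00141), SMAD7 was higher by 0.32 (SE 0.103, adjusted p = 0.0461), and SNAI2 was lower, at -0.63 (SE 0.0843, adjusted p = 3.56e-04). The same contrast for the PIP4K2B knockdown called 3 (14.4%): ID3 at 0.64 (SE 0.129, adjusted p = 0.00684), SMAD6 at 0.45 (SE 0.109, adjusted p = 0.0161) and SNAI2 at -0.34 (SE 0.0836, adjusted p = 0.0174). Double against PIP4K2B knockdown called 1 (17.7%), SNAI2 at -0.29 (SE 0.0847, adjusted p = 0.0321). The double knockdown's SMAD7 call was lost when any of 8 libraries was left out, and the PIP4K2B calls of ID3 and SMAD6 without its UV replicate 1. Without PIP4K2A UV replicate 1 or 2, PIP4K2B against PIP4K2A gave ID3 at 0.70 and 0.61, SMAD6 at 0.48 and 0.44 and SNAI2 at -0.29 and -0.38, all called; ID1 (0.78) and SKIL (-0.54) were also called without replicate 1, and stood at -0.28 and 0.17, not called, without replicate 2. SNAI2 and SMAD6 in the double knockdown were called without either PIP4K2A library, SNAI2 at -0.58 and -0.67 and SMAD6 at 0.68 and 0.64, but a fit of only the 2 groups called 0 in both contrasts with the PIP4K2A knockdown. Without PIP4K2A UV replicate 2, ID1 (-1.02), SKIL (0.38) and SNAI1 (-0.84) were also called in the double knockdown, and without replicate 1 they stood at 0.04, -0.32 and -0.21. In TPM, SKIL measured 14.3 and 14.1 in the double knockdown after UV, below 21.5 and 19.2 in the PIP4K2A knockdown.

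Whether the UV response itself differed between genotypes was tested as a difference of changes for all 6 pairs of genotypes. None of the 54 tests of the 9 genes was called by edgeR, with a lowest adjusted p of 0.591 and 7 unadjusted p under 0.05, and DESeq2 called 1. Of all genes, 0.00885% were called for PIP4K2A against empty vector, 0.00885% for double against empty vector, 0.0133% for double against PIP4K2A, and 0% for the other 3 pairs. BAMBI gave 4 of the 7: its response was 1.35 log2 units higher in the PIP4K2A knockdown than in empty vector (SE 0.388, adjusted p = 0.901) and lower in the double than in the PIP4K2A knockdown, at -1.41 (SE 0.347, adjusted p = 0.643). SNAI2 gave the other 3, of which the double against the PIP4K2B knockdown, at -0.61 (SE 0.1198, adjusted p = 0.618), was the 1 that DESeq2 called. For SMAD7 the 6 differences ran from -0.12 to 0.27 and for SNAI1 from -0.19 to 0.15. The result changed with 1 library: without PIP4K2A UV replicate 2, edgeR called BAMBI (1.49) and SKIL (-0.62) for PIP4K2A against empty vector. It then also called ID1 (-0.98), BAMBI (-1.55) and SNAI2 (-0.44) for double against PIP4K2A, and without replicate 1 it called none of the 54. The share of all genes called was not counted without either library, so the shares above do not apply to these calls. The SKIL value rests on counts without a length term. The 3 differences from empty vector share its libraries.

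Outside the 9 genes, the pathway was read from 8 lists that together hold 103 genes, of which 94 were tested. LTBP2 and BMP4 stand in 2 lists each and count once in the totals. After UV 15 rose and 27 fell in empty vector, with PIP4K2A knocked down 16 and 31, with PIP4K2B 23 and 34, and with both 20 and 36. The medians were -0.07, -0.10, -0.05 and -0.08 against 0.02, 0.01, 0 and 0.02 over all genes. The shares of all genes called higher and lower, to read these counts against, were those given above: 8.67% and 9.82%, 16.6% and 14%, 17.5% and 15.4%, and 19.1% and 16.1%. The receptors and co-receptors leaned down: of 14 tested, 9 fell in empty vector and 10 in each knockdown, with 0, 0, 1 and 1 that rose. RGMB, a BMP co-receptor, fell (-1.09, -1.31, -1.11 and -1.18), and TGFBR2, the type II TGF-beta receptor, fell (-0.61, -0.77, -0.93 and -0.74) in empty vector, the PIP4K2A, PIP4K2B and double knockdown. The type I BMP receptors BMPR1A and BMPR1B fell in all 4 as well, BMPR1B with values of -0.68, -0.99, -0.75 and -1.13. Of the 6 signal-carrying SMADs 2 fell in empty vector and 3 in each knockdown, among them SMAD1 (-0.58 to -0.68) and SMAD3 (-0.28 to -0.39).

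Other intracellular brakes fell alongside SMAD6 and SMAD7, with exceptions. Of 13 tested, 9, 8, 9 and 10 fell and 3, 2, 3 and 2 rose in the 4 genotypes. TGIF1, a SMAD co-repressor, fell (-2.09, -1.77, -1.77 and -1.84), a larger fall than that of SMAD7 in empty vector, the PIP4K2B and the double knockdown. The ubiquitin ligase SMURF1 fell (-0.61 to -0.93) and so did the co-repressor SKI (-0.48 to -1.02). TOB1, an antiproliferative protein that binds BMP SMADs, went the other way: it rose by 1.79, 1.46, 1.64 and 1.26, and with ribosomal protein gene scaling by 1.07, 0.65, 0.74 and 0.39. Among 11 other BMP targets and helix-loop-helix partners 4, 4, 5 and 5 fell and 2, 1, 2 and 1 rose, and with ribosomal protein gene scaling 0 rose. ATOH8, a BMP-responsive transcription factor, fell (-1.08, -1.77, -1.26 and -1.28), and so did RUNX2, the osteoblast regulator (-0.61 to -0.96). The level of ATOH8 was low, at 0.1 to 0.46 TPM in the UV libraries.

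The other TGF-beta targets leaned the opposite way with TMM. Of 13 tested, 6, 6, 7 and 8 rose and 1, 1, 1 and 2 fell, and with ribosomal protein gene scaling 1, 2, 1 and 2 rose and 7, 9, 9 and 9 fell, near the 48.3%, 63.9%, 67.1% and 65.1% of all genes called lower on that scale. Falls of the other lists on that scale are likewise to be read against those shares. CDKN2B, the cell-cycle inhibitor p15, rose by 0.97, 1.26 and 1.37 in empty vector, the PIP4K2A and the double knockdown and stayed above 0 with ribosomal protein gene scaling. Of 19 genes for ligands and their activation 1, 4, 8 and 5 rose and 3, 3, 4 and 3 fell, and with ribosomal protein gene scaling 1 rose in each genotype and 15, 14, 15 and 16 fell. GDF15, a stress-induced member of the TGF-beta family, rose by 3.52, 2.71, 3.10 and 3.38, and INHBA, which encodes the activin A subunit, fell (-0.52, -0.49, -0.82 and -0.98). Of 11 secreted antagonists 2 rose in each genotype and 0, 1, 2 and 2 fell, and with ribosomal protein gene scaling 0 rose. NOG, the BMP trap noggin, fell (-1.09, -0.96 and -1.05) in the knockdowns and stood at -0.14 in empty vector. Of 9 genes of the epithelial-mesenchymal transition 1, 2, 1 and 2 rose and 0, 2, 1 and 2 fell, and with ribosomal protein gene scaling 0 rose and 5, 7, 8 and 8 fell. Of the 6 epithelial markers tested 0, 3, 3 and 3 rose and 0, 1, 0 and 0 fell after UV. Their summed level over 8 markers, of which 5 reached 1 CPM, was 268.7 CPM in untreated empty vector, 406 to 495.7 in the untreated knockdowns, 323.7 and 324.3 in empty vector after UV and 553.4 to 933.5 in the knockdowns after UV, highest in PIP4K2A knockdown UV replicate 1.

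**Figure D4:**
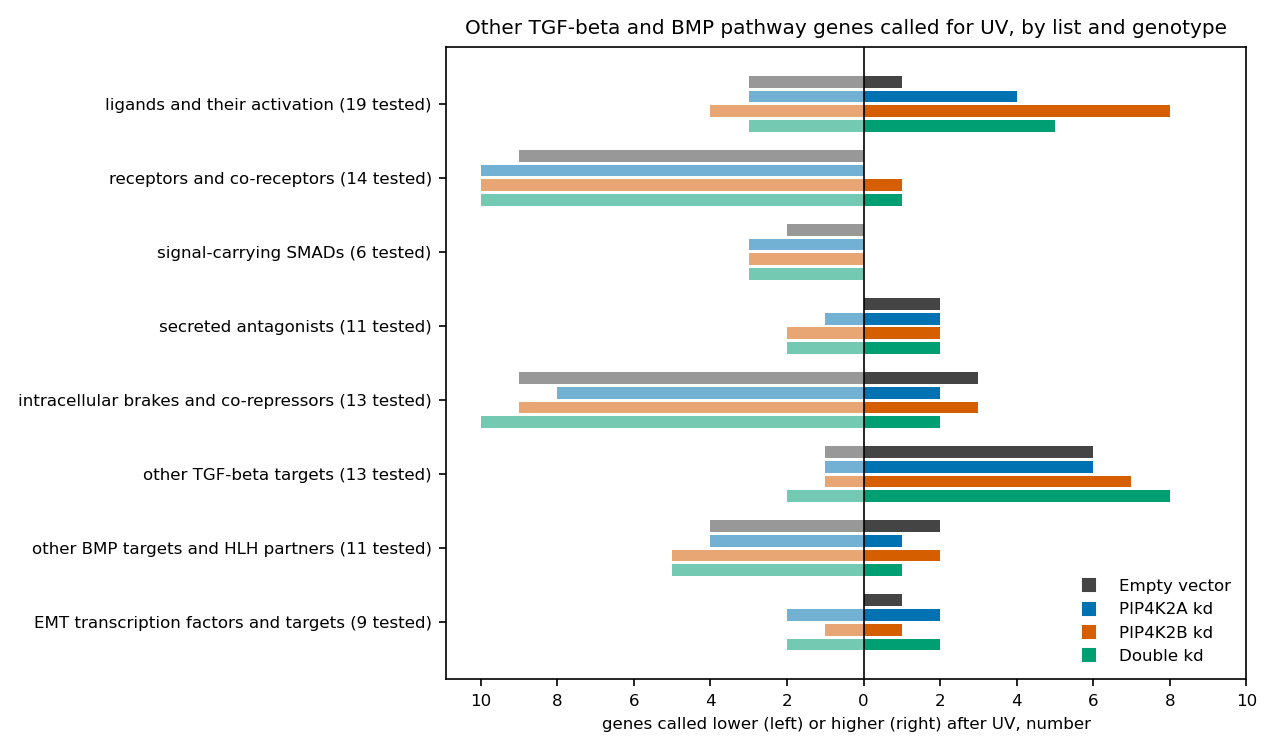
Number of genes in each of the 8 pathway lists (y axis, with the number tested) called lower (left) or higher (right) after UV with TMM scaling (x axis, genes), 1 bar for each genotype. Receptors and intracellular brakes lie mainly to the left, with 9 or 10 and 8 to 10 genes called lower, and other TGF-beta targets mainly to the right, with 6 to 8 called higher.

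Without UV, of these 94 pathway genes 11 were higher and 10 lower than empty vector with PIP4K2A knocked down. For PIP4K2B these counts were 16 and 12, and for the double knockdown 13 and 9. Of all genes 3.71% were higher and 4.13% lower with PIP4K2A, 5.26% and 4.99% with PIP4K2B, and 3.24% and 2.96% with both knocked down. TAGLN, a smooth-muscle actin-binding protein, was higher by 0.92, 1.04 and 0.90 in the 3 knockdowns, and SMURF1 by 0.69 and 0.91 in the single knockdowns. CDKN2B was lower in the PIP4K2B knockdown, at -4.36, and higher in the double knockdown by 0.85. Its level was low, at 0.03 TPM in each untreated PIP4K2B library against 0.9 TPM in the 1 untreated empty-vector library. CLDN1, a tight-junction protein, was higher by 2.62, 2.95 and 1.59, and CDH2, N-cadherin, fell (-0.74, -0.55 and -0.61), while the repressor ZEB1 fell (-0.63, -0.33 and -0.83). With ribosomal protein gene scaling CDH2 was called lower in the PIP4K2A knockdown alone and ZEB1 in the double knockdown alone. Of the 6 epithelial markers tested 2, 1 and 2 were higher and 1, 1 and 0 lower in the same comparisons, and of the 8 mesenchymal markers 0 were higher and 2, 3 and 2 lower. Their part in the SNAI2 and SMAD values was not tested.

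Across the 15 libraries the genes most like each member, by Pearson r of log2(CPM + 0.5) among genes with a mean of at least 5 CPM, were as follows, as a description in which untreated and UV libraries of all genotypes are pooled. SMAD7 was most like TOB2 (r = 0.994) and IQCJ-SCHIP1 (0.993), ID3 most like RALGDS (0.988) and AKAP17A (0.987), ID1 most like HSPA1A (0.984) and CTDP1 (0.984), and SMAD6 most like PTCH1 (0.982) and RETREG3 (0.980). SKIL was most like SMAD4 (0.988) and FAM220A (0.978), and SNAI1 most like COTL1 (0.982) and CSNK2B (0.978). The nearest genes to SNAI2 (ALMS1, 0.838), BAMBI (NEK3, 0.804) and ID2 (NPIPB5, 0.790) were less close. HSPA1A and NPIPB5 have near-identical copies that may share reads, so their levels are uncertain.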

How the data were processed

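RNA-seq of 16 U2OS libraries (total RNA with ribosomal RNA depleted and a directional kit, per the labels' protocols) was deposited as RSEM gene tables. They hold expected counts, TPM and each gene's isoform-weighted length in bases, per the file headers. STAR, SAMtools, RSEM and GRCh38 are named in the submitters' processing notes. Versions, annotation release, strand setting and filters were not given in the sources used here, so reads of a gene and an antisense partner may not be separable. Symbols came with GENCODE release 29, which held 58420 of the 60666 identifiers.

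Expected counts were rounded and fitted with edgeR 4.0.16 in R 4.3.3 (glmQLFit and glmQLFTest, filterByExpr with a minimum count of 10, TMM, 1 term per group) on 15 libraries, without the shallow empty-vector library. Benjamini-Hochberg adjustment ran over all 22597 genes tested. A standard error is the absolute log2 change divided by the square root of F. CPM scales unrounded expected counts to the library total, without TMM factors. On simulated data 100% of 2-fold changes between groups of 2 libraries were called, among 21025 genes. Against a lone library 79.6% were called, among 21045 genes. For 1.5-fold changes these shares were 43.8% and 13.8%. They pool the changed genes and cover UV changes in the PIP4K2A knockdown and in empty vector alone. Standard errors of the 9 genes for UV in the PIP4K2A knockdown ran from 0.0834 (SNAI2) to 0.248 (BAMBI). The shares therefore need not hold for each of the 9 genes. No share was taken for differences between UV responses, so the power of those tests is not known. PCR duplicates cannot be told from separate molecules, so counting precision is an upper bound.

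The members, the lists and the tests were chosen with earlier results of these data known. All 9 members are named. Of each pathway list, up to 4 genes were nameable, those past the test in the most of 10 comparisons, with ties broken by the largest change. Of these, 1 is not reported here. The nearest genes were the 2 with the highest Pearson r among genes with a mean of at least 5 CPM. Alternatives were all 16 libraries, median-ratio (RLE) factors, scaling to 81 ribosomal protein genes, no filter, DESeq2 1.42.0, a filter of over 1 CPM in 2 libraries, a fit of only the groups compared, a replicate block and leaving out each library. Leaving out both PIP4K2A knockdown UV libraries was added after seeing the data.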

Additional observations from a re-analysis of the deposited data

Results flagged for a closer look

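In the untreated empty-vector library that was set aside, 3 of the 9 genes lay above the highest of the other 15 libraries. ID3 measured 74.3 CPM there against at most 61.2, BAMBI 17.2 CPM against at most 5.79, and SNAI2 44.6 CPM against at most 43.1. These values rest on a library of 1.28 M counts whose PIP4K2A level did not match its label. Its correlation with the other 15 libraries was only 0.431 to 0.528. Its 8 blood markers summed to 94.85 CPM and its 6 endothelial markers to 158 CPM, against at most 10.7 and 5.51 in the other 15. The source of these reads was not tested.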

How the results depend on the processing

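Numbers are members called of 9. With all 16 libraries the coefficient of variation rose from 11.35% to 41.93%. UV counts fell to 3 in empty vector, 1 in the PIP4K2A, 0 in the PIP4K2B and 1 in the double knockdown. Of all genes 12%, 0.534%, 0.783% and 1.21% were called there. Every comparison between genotypes with a call in the main fit came to 0, where 0.0136% to 0.711% of all genes were called. SMAD7 against untreated empty vector turned to 0.16 and 0.10 in the single knockdowns. With ribosomal protein gene scaling the double knockdown had 9 UV calls, the untreated PIP4K2A and PIP4K2B knockdowns 1 and 0 against empty vector, and the double knockdown after UV 0 against empty vector and 0 against PIP4K2B. The UV values that reversed there were SNAI2 at -0.23, -0.48 and -0.37 in empty vector, the PIP4K2A and the PIP4K2B knockdown, ID2 at -0.22, -0.26 and -0.57 in the PIP4K2A, PIP4K2B and double knockdown, and BAMBI at -0.025 in the PIP4K2A knockdown. Fitting only the groups compared gave 4 for UV in the PIP4K2A knockdown; against untreated empty vector 0, 4 and 3 for the PIP4K2A, PIP4K2B and double knockdowns and after UV 0, 6 and 4; 4 for double against PIP4K2B untreated and 5 after UV; 0 for double and for PIP4K2B against PIP4K2A after UV; and 1 for the UV response of double against PIP4K2B. Without the filter (40269 genes) the PIP4K2B knockdown had 2 calls without and 2 with UV against empty vector, the PIP4K2A and double knockdowns 4 each after UV, PIP4K2B against PIP4K2A untreated 2, double against PIP4K2B after UV 2, and the UV responses of PIP4K2A against empty vector and of double against PIP4K2A 1 each. After UV the CPM filter and DESeq2 each gave 2 for PIP4K2B and 2 for double against empty vector and 2 for double against PIP4K2B, RLE gave 2 for double against empty vector, and DESeq2 called 1 UV response difference, double against PIP4K2B. Without both PIP4K2A UV libraries, against empty vector PIP4K2B had 3 and double 1 untreated and 3 and 4 after UV; double against PIP4K2A untreated had 2, double against PIP4K2B 4 untreated and 3 after UV, and PIP4K2B against PIP4K2A untreated 2. For these shifts the cause was not tested. With ribosomal protein gene scaling 65.7% of all genes were called for UV in the double knockdown. After UV 15.4% were called for double against empty vector and 16% for double against PIP4K2B. Shares of all genes were taken for the main fit, all 16 libraries and ribosomal protein gene scaling alone. Counts under the other settings, and without 1 library, lack that share and describe the members only.

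Leaving out 1 library gave 5 to 7, 4 to 9, 6 to 8 and 5 to 7 UV calls in empty vector, the PIP4K2A, PIP4K2B and double knockdown. Against empty vector it gave 0 to 3, 1 to 2 and 0 to 1 untreated and 2 to 5, 0 to 3 and 1 to 4 after UV. Double against PIP4K2A gave 0 to 2 untreated and 2 to 5 after UV, double against PIP4K2B 0 to 3 and 0 to 4, and PIP4K2B against PIP4K2A 0 to 2 and 0 to 5. UV response differences gave 0 to 2 for PIP4K2A against empty vector, 0 to 3 for double against PIP4K2A and 0 for the other 4. ID1 after UV in the PIP4K2A knockdown against empty vector ran from -0.47 to 0.59, and SKIL in double against PIP4K2A after UV from -0.32 to 0.38.

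Replicate numbers showed no consistent pairing of the libraries: over 21 pairs of groups the correlation of deviations ran from -0.294 to 0.48, with 5 over 0.1 and 5 under -0.1. Untreated empty vector, with 1 library, was not in this check. A replicate block changed 1 of 198 member results, to a lost call, and moved no count by over 1.5 times; UV calls in empty vector were then 6. Of the 198 member results 195 kept direction and call with RLE, 193 with the CPM filter, 189 with DESeq2, 175 without the filter, 172 with ribosomal protein gene scaling, 160 with only the groups compared and 158 with all 16 libraries. Depth limits BAMBI most, with as few as 48 counts.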
